A study of Arabidopsis thaliana with 3 samples.

Results

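The *FT* and *TFL1* family of *Arabidopsis thaliana* consists of 6 genes for small proteins related to phosphatidylethanolamine-binding proteins, namely *FT* (AT1G65480), *TSF* (AT4G20370), *TFL1* (AT5G03840), *ATC* (AT2G27550), *BFT* (AT5G62040) and *MFT* (AT1G18100). It was analysed together with *FD* (AT4G35900), the gene of the bZIP transcription factor with which these proteins act, so that 7 of the 33559 loci of the expression table are described. The members were taken by their locus identifiers, and each had 1 entry in the table.

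FT protein is the mobile florigen signal. It is made in the phloem companion cells of leaves in long days and moves to the shoot apex, where it joins FD and 14-3-3 proteins and turns on floral meristem genes. TFL1 competes for the same partners and keeps the meristem from forming flowers, so that the balance between both kinds of protein sets when and where flowers form. FT and TSF act as activators of flowering, TFL1, ATC and BFT act as repressors, and MFT is best known for its role in seed germination.

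Poly(A) RNA of whole seedlings in the Col background was sequenced in 3 libraries, which came from wild type (Col), from *mms19-1*, a T-DNA insertion mutant of the cytosolic iron-sulfur assembly gene *MMS19*, and from *abo4*, a weak missense allele of the gene of the catalytic subunit of DNA polymerase ε. All seedlings were 14 days old and were grown on MS agar at 22°C in long days (16 h of light), after 3 days at 4°C. The question was whether both mutations alter the expression of similar genes. As each genotype had a single library, differences could not be checked against replicates and were given without p-values, and in whole seedlings more cells of one kind cannot be told apart from more RNA per cell.

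Among the many codons at which *FT* and *TFL1* differ, those of 2 positions known to matter for their activity are shown here. The reason is that the members that were higher in the mutants include activators and repressors of flowering. At the first of these positions FT carries tyrosine and TFL1 carries histidine, and exchange of these residues is known to turn one protein toward the activity of the other. Each sequence is the coding strand within coding exon 2 of 4, from RefSeq TAIR10.1, with the codon in capitals.
FT, codon 85 (tyrosine), chr1:24332559-24332585, + strand: aaccctcacctccgagaaTATctccat
TSF, codon 85 (tyrosine), chr4:11002060-11002086, - strand: aaccctcaccaacgagaaTATctccac
TFL1, codon 88 (histidine), chr5:1025317-1025343, - strand: gacccctttctaaaagaaCACctgcac
ATC, codon 86 (histidine), chr2:11774007-11774033, + strand: gatccttatctgagagagCACttgcac
BFT, codon 85 (tyrosine), chr5:24923147-24923173, + strand: aatccttatatgcgtgaaTATctgcat
MFT, codon 83 (tryptophan), chr1:6229294-6229320, - strand: gagccgaacatgagagaaTGGgtccac

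The second position lies in coding exon 4, in the external loop that is known to separate FT from TFL1. It is shown because the members divide differently there.
FT, codon 140 (glutamine), chr1:24333567-24333593, + strand: ccagggtggcgcCAGaacttcaacact
TSF, codon 140 (glutamine), chr4:11001107-11001133, - strand: ccggggtggcgcCAAcagttcaacact
TFL1, codon 144 (aspartate), chr5:1024850-1024876, - strand: atcccttcgagaGATcacttcaacact
ATC, codon 142 (aspartate), chr2:11774393-11774419, + strand: ccatcttacagaGACcaattcaacact
BFT, codon 141 (glutamate), chr5:24923584-24923610, + strand: ccggaaactagaGAGtgtttcaacaca
MFT, codon 140 (alanine), chr1:6228139-6228165, - strand: cctccatcacgaGCCaatttcagcaca

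BFT, which acts like TFL1, thus carried the FT residue at the first position and an acidic residue, as TFL1 does, at the second. The predicted proteins have 173 to 177 residues. FT and TSF were identical at 81.7% of 175 aligned residues, TFL1 and ATC at 68.8% of 173, FT and TFL1 at 57.6% of 172, and BFT at 59.2% with FT and 60.1% with TFL1. For FD the end of the coding sequence is shown, since it holds the threonine codon (codon 282, in capitals) whose phosphorylation is known to allow binding of 14-3-3 proteins.
FD, last 30 coding bases before the stop, chr4:17005920-17005949, + strand: acacttcaacggtcttccACAgctccattt

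Expression is given as FPKM, a fragment count divided by transcript length and by depth, so that levels can be compared between genes. Read numbers were estimated from transcript lengths and from recovered depths of 55705000 reads in Col, 51020000 in *mms19-1* and 49360000 in *abo4*. Intervals are 95% exact intervals for counting error only and do not hold the spread between seedlings. Each mutant was compared with Col by the log2 ratio of FPKM + 0.1, which makes differences of weakly expressed genes look smaller, and a gene was counted as higher or lower where the level differed by more than 2-fold. *MMS19* was at 10.14 FPKM in Col, 0.228 in *mms19-1* and 9.01 in *abo4*, which fits the label of the *mms19-1* library. The missense allele of *ABO4* cannot be seen in FPKM, so the label of the *abo4* library was not checked. *ABO4* was at 5.03, 6.95 and 8.09 FPKM in Col, *mms19-1* and *abo4*. For the 19771 loci whose mean reached 1 FPKM, the log2 ratio had a median of -0.02 in *mms19-1* and -0.01 in *abo4*. Of the 26416 loci with a value above 0 in at least 1 library, 2.38% were counted as higher and 1.64% as lower in *mms19-1*, and 3.87% as higher and 2.58% as lower in *abo4*. Among the 19771 loci these shares were 1.03% and 0.804% in *mms19-1*, and 1.92% and 1.9% in *abo4*.

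Of the 7 members, *FT*, *BFT* and *TFL1* exceeded their Col levels by more than 2-fold in *mms19-1*, or 3 of 7 beside the 2.38% of all loci. In *abo4*, *FT* and *TSF* were counted as higher, or 2 of 7 beside 3.87%, and *TSF* rested on an estimated 4 reads. No member was more than 2-fold lower in either mutant. The median log2 ratio of the 7 members was 0.71 in *mms19-1* and 0.34 in *abo4*, beside -0.01 and 0.00 over the 26416 loci. Both comparisons share the Col library. The members were chosen with results of these data known, so these counts describe the members and are no test of them.

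**Figure D1:**
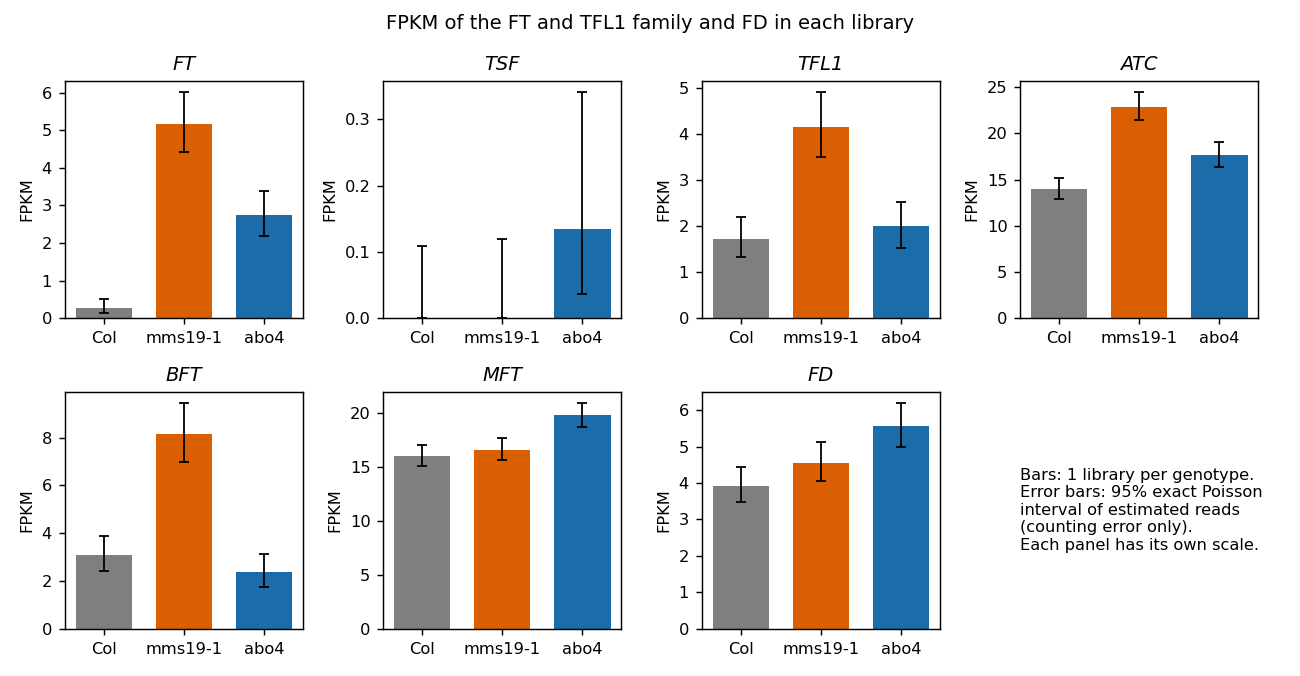
FPKM of each member (vertical axis, each panel with its own scale starting at 0) in the Col, *mms19-1* and *abo4* libraries. Bars are single libraries and error bars are 95% exact Poisson intervals of the estimated reads. *FT* stands at 0.274, 5.17 and 2.75 FPKM, while *BFT* and *TFL1* are high in *mms19-1* only among the 3 libraries.

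*FT* was low in Col and far higher in both mutants. It had 0.274 FPKM in Col (an estimated 10 reads), 5.17 FPKM in *mms19-1* (172 reads) and 2.75 FPKM in *abo4* (88 reads). The Col value lay below both mutants, and none of the 3 counting intervals overlapped. The level in *mms19-1* was 18.9 times that in Col (95% exact interval 9.97 to 39.9), and the log2 ratio of FPKM + 0.1 was 3.82. The level in *abo4* was 10.05 times that in Col (5.15 to 21.4), with a log2 ratio of 2.93. Among the 26416 loci, only 51 had a higher log2 ratio than *FT* in *mms19-1* and 87 had a higher one in *abo4*. In *abo4* the *FT* level was 53.2% of that in *mms19-1* (40.4 to 68.8%), a comparison that does not use the Col library.

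*TSF*, the closest relative of *FT*, was listed at 0 in Col and in *mms19-1* and had 0.135 FPKM in *abo4*. With no read in either library, the exact interval reached up to 0.109 FPKM in Col and up to 0.119 FPKM in *mms19-1*. The interval of the *abo4* value reached from 0.0363 to 0.341 FPKM and overlapped both of these limits, so that a difference was not detectable at this depth. Of the 812 stretches of 45 bases in the *FT* transcript, 6 matched the *TSF* transcript with at most 2 mismatches and none matched it exactly, so few reads could be placed at either gene.

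The repressors *TFL1*, *BFT* and *ATC* were each highest in *mms19-1*. *TFL1*, which keeps the inflorescence meristem indeterminate, had 1.73 FPKM in Col (64 reads), 4.14 in *mms19-1* (141 reads) and 1.99 in *abo4* (65 reads). Only the *mms19-1* library stood apart from the others in its counting interval. Its level was 240% of Col in *mms19-1* (178 to 328%) and 115% of Col in *abo4* (79.9 to 164%). *TFL1* was lower in *abo4* than in *mms19-1*, at 48.1% (35.0 to 64.4%). With 1 FPKM added in place of 0.1, the log2 ratio of *TFL1* was 0.92 in *mms19-1* against Col and -0.78 in *abo4* against *mms19-1*, both inside the 2-fold limit.

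*BFT*, a floral repressor like *TFL1* in function, had 3.08 FPKM in Col (73 reads), 8.14 in *mms19-1* (177 reads) and 2.38 in *abo4* (50 reads). The *mms19-1* value again stood above both others, while the Col and *abo4* intervals overlapped. The level was 264% of Col in *mms19-1* (200.5 to 353%) and 77.3% in *abo4* (52.8 to 112%). In *abo4* it was 29.2% of that in *mms19-1* (20.9 to 40.2%). *BFT* and *TFL1* were the 2 members more than 2-fold lower in *abo4* than in *mms19-1*, beside 3.26% of all loci, and *TSF*, with its 4 reads, was the 1 member counted as higher, beside 3.6%. Among the loci whose mean reached 1 FPKM, 2.31% were lower and 2.09% higher in *abo4* than in *mms19-1*. The 3' end of *BFT* overlaps *OXA1* on the opposite strand. *OXA1* was at 20.3, 22.6 and 23.5 FPKM in Col, *mms19-1* and *abo4*, and whether the libraries keep strand is not given in the sources used here, so that reads of both genes in the overlap may not be told apart.

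*ATC*, a mobile antagonist of FT, was among the 2 highest members in each library, with 14.0 FPKM in Col, 22.9 in *mms19-1* and 17.7 in *abo4*. Its level was 164% of Col in *mms19-1* (148 to 181%) and 126% in *abo4* (113 to 141%). Both values lay inside the 2-fold limit and above the Col value beyond counting error. *ATC* was thus highest in *mms19-1*, as *FT*, *TFL1* and *BFT* were.

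*MFT* and *FD* differed least between the libraries. *MFT* had 16.1 FPKM in Col, 16.6 in *mms19-1* and 19.8 in *abo4*, or 103% of Col in *mms19-1* (94.97 to 113%) and 123% in *abo4* (113 to 134%). *MFT* overlaps AT1G18090 on the opposite strand, which was at 3.77, 3.47 and 2.85 FPKM. *FD*, which is expressed in the shoot apex, had 3.92, 4.56 and 5.56 FPKM, or 116% of Col in *mms19-1* (97.9 to 138%) and 142% in *abo4* (120 to 167%). The highest *MFT* and *FD* values were thus in *abo4*, not in *mms19-1*.

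**Figure D2:**
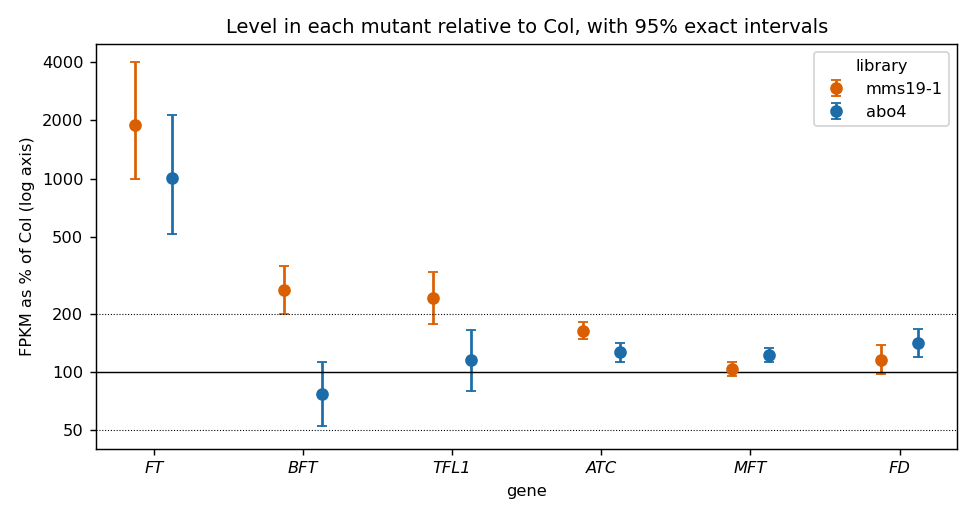
FPKM of 6 members in *mms19-1* and *abo4* as a percent of Col (log axis), with 95% exact intervals for counting error. The solid line marks the Col level and the dotted lines mark 2-fold. *FT* lies at 1889% and 1005%, *BFT* and *TFL1* lie above 200% in *mms19-1* only, and *TSF* is left out because it was listed at 0 in Col.

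The order of the levels differed between the libraries. In Col it ran from *MFT* through *ATC*, *FD*, *BFT*, *TFL1* and *FT* to *TSF*. In this library *FD* and *BFT* did not differ beyond counting error, with a ratio of 1.27 (0.982 to 1.68), and *TFL1* was 6.30 times as high as *FT* (3.20 to 13.7). In *mms19-1* the order was *ATC*, *MFT*, *BFT*, *FT*, *FD*, *TFL1* and *TSF*. Here *ATC* was above *MFT* at a ratio of 1.38 (1.26 to 1.51), whereas in Col it was below, at 0.871 (0.789 to 0.963). *BFT* was 1.57 times as high as *FT* (1.27 to 1.95), while neither *FT* and *FD* nor *FD* and *TFL1* differed beyond counting error. In *abo4* the order was *MFT*, *ATC*, *FD*, *FT*, *BFT*, *TFL1* and *TSF*. *FD* was 2.02 times as high as *FT* (1.60 to 2.60), and neither *FT* and *BFT* nor *BFT* and *TFL1* differed beyond counting error.

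Within a library, the level of *FT* relative to its antagonists was far lower in Col than in either mutant. The ratio of *FT* to *TFL1* was 0.159 in Col (0.0731 to 0.313), 1.25 in *mms19-1* (0.992 to 1.57) and 1.38 in *abo4* (0.992 to 1.94). The ratio of *FT* to *BFT* was 0.0889 in Col (0.0412 to 0.174), 0.635 in *mms19-1* (0.512 to 0.787) and 1.16 in *abo4* (0.803 to 1.66). The Col interval of each ratio lay below those of both mutants. The intervals of *FT* to *TFL1* overlapped between the mutants, though *TFL1* itself was higher in *mms19-1*, and those of *FT* to *BFT* did not. *FT* made up 0.779% of the summed FPKM of the 6 family genes in Col, 9.08% in *mms19-1* and 6.15% in *abo4*.

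**Figure D3:**
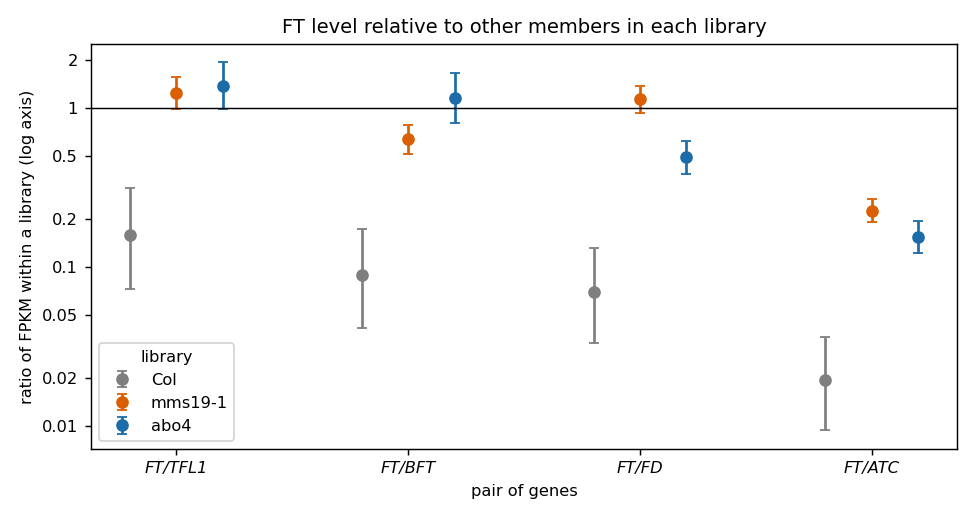
Ratio of the FPKM of *FT* to that of *TFL1*, *BFT*, *FD* and *ATC* (horizontal axis) within each library (log axis), with 95% exact intervals for counting error. For every pair the Col point lies lowest, at 0.159 for *FT* to *TFL1* beside 1.25 and 1.38 in the mutants.

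The nearest listed genes on both sides of *FT* did not share its high values in the mutants. These were *FAS1*, at 7.98, 6.90 and 6.96 FPKM in Col, *mms19-1* and *abo4*, and AT1G65481, at 0.285, 0.0622 and 0.193 FPKM. They lie 7281 and 6736 bases away. AT1G65481 was counted as lower in *mms19-1* (log2 ratio -1.25), beside 1.64% of all loci. Its *mms19-1* value lies below the 0.1 FPKM added, so this ratio depends on that amount, and no counting interval is given for it. Beside *TFL1*, AT5G03830 was at 10.12, 8.65 and 8.16 FPKM and AT5G03850 at 161.7, 162.1 and 177 FPKM. Beside *BFT*, AT5G62030 was at 10.8, 11.3 and 9.58 FPKM and AT5G62060 was listed at 0 in each library. None of these neighbours showed the high *mms19-1* value of *TFL1* and *BFT*.

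Among the other 19770 loci with a mean of at least 1 FPKM, the 3 whose pair of log2 ratios lay closest to that of *FT* were *SK9* (AT3G21850), *SEP1* and *BAM5*. *SK9* had 0.0691, 2.11 and 1.09 FPKM in Col, *mms19-1* and *abo4*, at a distance of 0.16 on the log2 scale. *SEP1*, a MADS-box gene of floral organ identity, had 0.134, 4.15 and 2.46 FPKM, at a distance of 0.64. *BAM5*, a beta-amylase gene, had 4.42, 52.2 and 22.5 FPKM, at a distance of 0.67. For *TFL1* the closest loci were AT5G45990, *MIR403* and AT1G33640, at distances of 0.07 to 0.14. For *BFT* they were AT2G20870, *DELTA-VPE* and *PHE1*, at distances of 0.19 to 0.22. Each likeness rests on 3 libraries and on 2 ratios that share Col. The Col values of *SK9* and *SEP1* are close to the 0.1 FPKM added, so their ratios and distances depend on that amount.

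Markers of maturing seeds, like *BFT*, were highest in *mms19-1*. Their 3 genes summed to 11.2 FPKM in Col, 24.0 in *mms19-1* and 5.77 in *abo4*. The albumin gene *AT2S3* was at 0.316, 3.86 and 0.143 FPKM, the globulin gene *CRA1* at 10.13, 18.8 and 5.03 FPKM and the oleosin gene *OLEO1* at 0.709, 1.35 and 0.600 FPKM. Only *AT2S3* was counted as higher in *mms19-1*, or 1 of 3 beside 2.38% of all loci, and it had an estimated 10 reads in Col. In *abo4*, *CRA1* was at 49.6% of Col (43.9 to 56.1%). The *abo4* intervals of *AT2S3* (10.3 to 157%) and *OLEO1* (45.7 to 155%) held the Col level, as that of *BFT* did. The part of seed tissue in the *BFT* result was not tested. *MFT*, the member tied to seeds, was highest in *abo4*, and its relation to these markers was not tested.

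Markers of the tissues in which *FT*, *TFL1* and *FD* are known to act differed less. The 4 companion cell genes (*SUC2*, *AHA3*, *SULTR2;1* and *APL*) summed to 261, 267 and 246 FPKM in Col, *mms19-1* and *abo4*, with log2 ratios from -0.21 to 0.16 in the mutants. The 5 shoot meristem genes summed to 19.8, 19.1 and 26.6 FPKM. Of these, *KNAT1* and *STM* carried nearly all of the signal, and *CLV3*, *WUS* and *UFO* had an estimated 7 reads or fewer in each library. None of these 9 genes was past 2-fold in a mutant. In *abo4*, however, *STM* was at 148% of Col (131 to 168%) and *KNAT1* at 130% (121 to 140%), beside 142% for *FD*. In *mms19-1* their intervals held the Col level. The part of meristem tissue in the *FD* level was not tested. The 5 root genes summed to 31.0, 31.6 and 32.2 FPKM and the 3 green leaf genes to 31693, 31939 and 33270 FPKM, again with none past 2-fold.

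The florigen complex partners comprised the *FD* paralogue *FDP* and the 12 genes of 14-3-3 proteins *GRF1* to *GRF12*. None of the 13 genes was past 2-fold in either mutant, and *GRF12* was listed at 0 in each library. The median log2 ratio was 0.06 in *mms19-1* and 0.09 in *abo4*, beside -0.01 and 0.00 over all loci. *FDP* had 1.34, 1.95 and 2.78 FPKM in Col, *mms19-1* and *abo4*, the largest difference of the list. In *abo4* it was 207% of Col (151 to 284%), just inside the limit once 0.1 FPKM was added to both levels. Both bZIP genes, *FD* and *FDP*, were thus highest in *abo4*.

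The 4 genes for transport of the FT protein were also within 2-fold in both mutants. *FTIP1*, which aids export of FT from companion cells, had 7.01, 6.61 and 5.46 FPKM. *SYP121*, a syntaxin of the plasma membrane, had 28.95, 21.6 and 37.9 FPKM, the largest difference of the list. The median log2 ratio was -0.02 in each mutant.

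Of the 13 listed activators of *FT* transcription, none was past 2-fold in *mms19-1* and 1 was lower in *abo4*, beside 2.58% of all loci. That gene was *CIB1*, a cryptochrome-interacting factor, with 80.4, 69.4 and 37.7 FPKM, or 46.9% of Col in *abo4* (44.5 to 49.3%). *CO*, which turns on *FT* in long days, had 0.578 FPKM in Col (80 reads), 0.739 in *mms19-1* (94 reads) and 0.385 in *abo4* (47 reads). Its level was 128% of Col in *mms19-1* (94.2 to 175%) and 66.6% in *abo4* (45.2 to 96.2%). In *mms19-1* the interval of *CO* held the Col level, and in *abo4* it lay below the Col level. Within the 2-fold limit, other listed activators in *abo4* lay on both sides of Col beyond counting error. Examples were *GI* at 142% of Col (135 to 150%) and *NF-YB2* at 58.7% (55.0 to 62.7%). The part of *CO* and the other activators in the *FT* levels was not tested. The median log2 ratio of the list was 0.05 in *mms19-1* and -0.08 in *abo4*.

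The region before the *FT* start is shown because CCACA is the core of the elements through which CO is known to act there. CCACA or its reverse complement TGTGG occurred 3 times from 250 bases before to 50 bases after the start of the *FT* transcript, at 203, 185 and 79 bases before it. Of the annotated transcripts the one with the lowest accession was used, whose first base is chr1:24331428. The matches are in capitals.
FT, first and second match, chr1:24331221-24331250, + strand, RefSeq TAIR10.1: ttagTGTGGtgggtttggaataCCACAaac
FT, remaining match, chr1:24331336-24331365, + strand, RefSeq TAIR10.1: acaagaaaaagatTGTGGttatgatttcac
At least 1 match occurred in 33.8% of 26692 promoters of the same length, and at least 3 in 1.23%. The promoters of the other 6 members held none. Of 3 other motifs searched on both strands, CCAAT, the box that NF-Y factors bind, was absent from *FT* and *MFT* and occurred 1 time each in *TSF*, *TFL1*, *ATC*, *BFT* and *FD*, beside 51.4% of all promoters. CACGTG and GACGTC, held by 7.76% and 2.88% of promoters, occurred in no member. A match of these letters is a description of the sequence and does not show binding.

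Of the 13 listed repressors of *FT* transcription, 2 were more than 2-fold lower in *mms19-1*, beside 1.64% of all loci, and 5 in *abo4*, beside 2.58%. None was more than 2-fold higher. *FLC*, the MADS-box repressor that vernalization turns off, had 7.03 FPKM in Col (328 reads), 1.11 in *mms19-1* (48 reads) and 0.223 in *abo4* (9 reads). Its level was 15.8% of Col in *mms19-1* (11.5 to 21.7%) and 3.17% in *abo4* (1.40 to 5.95%). *TEM2*, a RAV-type repressor, was lower in both, with 186, 84.0 and 72.6 FPKM, or 45.1% and 39.0% of Col.

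Past 2-fold in *abo4* only were *TEM1*, *SNZ* and *CDF1*. *TEM1*, the paralogue of *TEM2*, had 134, 93.0 and 44.2 FPKM, or 69.6% of Col in *mms19-1* and 33.1% in *abo4*. The AP2-type repressor gene *SNZ* had 27.3, 24.7 and 12.2 FPKM. *CDF1*, whose product also represses *CO*, had 49.4, 45.3 and 21.1 FPKM. Directly between the mutants, *FLC*, *TEM1*, *SNZ* and *CDF1* were more than 2-fold lower in *abo4* than in *mms19-1*, beside 3.26% of all loci. The other 9 were within 2-fold between the mutants, from 69.0% for *SMZ* to 121% for *CLF* in *abo4* relative to *mms19-1*. The median log2 ratio of the list against Col was -0.15 in *mms19-1* and -0.62 in *abo4*.

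Of the 11 listed targets of the FT-FD complex, 4 were more than 2-fold higher in *mms19-1* (*AP1*, *FUL*, *LFY* and *SEP3*), beside 2.38% of all loci, and 4 in *abo4* (*AP1*, *CAL*, *LFY* and *SEP3*), beside 3.87%. None was more than 2-fold lower, and the median log2 ratio was 0.74 in *mms19-1* and 0.48 in *abo4*. Not all targets lay above Col. *SPL5* was at 60.4% of Col in *abo4* (47.6 to 76.7%). *SPL3* was at 67.9% in *mms19-1* (40.8 to 111%), where the interval held the Col level. *AP1*, which starts the floral meristem and is a direct target of the complex, had 0.104 FPKM in Col (6 reads), 0.627 in *mms19-1* (35 reads) and 0.884 in *abo4* (48 reads). *LFY*, the partner of *AP1* in floral meristem identity, had 0.0168 FPKM in Col (1 read), 0.441 in *mms19-1* (24 reads) and 0.380 in *abo4* (20 reads). With 1 read in Col, the ratio of *LFY* in *mms19-1* was bounded only between 427 and 107758% of Col.

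*SEP3*, a MADS-box gene of floral organ identity, had 1.93, 6.09 and 12.6 FPKM in Col, *mms19-1* and *abo4*, and it was more than 2-fold higher in *abo4* than in *mms19-1*, beside 3.6% of all loci. *FUL* had 2.47, 5.27 and 4.47 FPKM, or 213% of Col in *mms19-1* (174 to 262%) and 181% in *abo4* (147 to 224%). *CAL*, the paralogue of *AP1*, had 0.0855, 0.210 and 0.314 FPKM. *SOC1*, a floral integrator that acts in the shoot apex, had 45.9, 81.0 and 63.1 FPKM, or 177% of Col in *mms19-1* (169 to 185%) and 138% in *abo4* (131 to 144%). *SOC1* and *FUL* were thus highest in *mms19-1*, as *FT* was, while *AP1*, *CAL* and *SEP3* were highest in *abo4*. Of these 5 genes, *SOC1* and *SEP3* differed between the mutants beyond counting error.

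The flower organ genes *AG*, *AP3* and *PI* were also higher in both mutants. They summed to 1.04 FPKM in Col, 4.00 in *mms19-1* and 5.79 in *abo4*, and each of the 3 was more than 2-fold higher in both mutants, beside 2.38% of all loci in *mms19-1* and 3.87% in *abo4*. *AG* was at 0.161, 0.513 and 1.71 FPKM, *AP3* at 0.214, 1.495 and 0.797 FPKM and *PI* at 0.660, 1.99 and 3.28 FPKM. *AG* and *AP3* had an estimated 12 reads each in Col. The intervals of *AG* in *mms19-1* (161 to 674% of Col) and of *AP3* in *abo4* (193 to 788%) reached below 2-fold. The part of such organs in the levels of *AP1*, *SEP3* and the other targets was not tested.

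**Figure D4:**
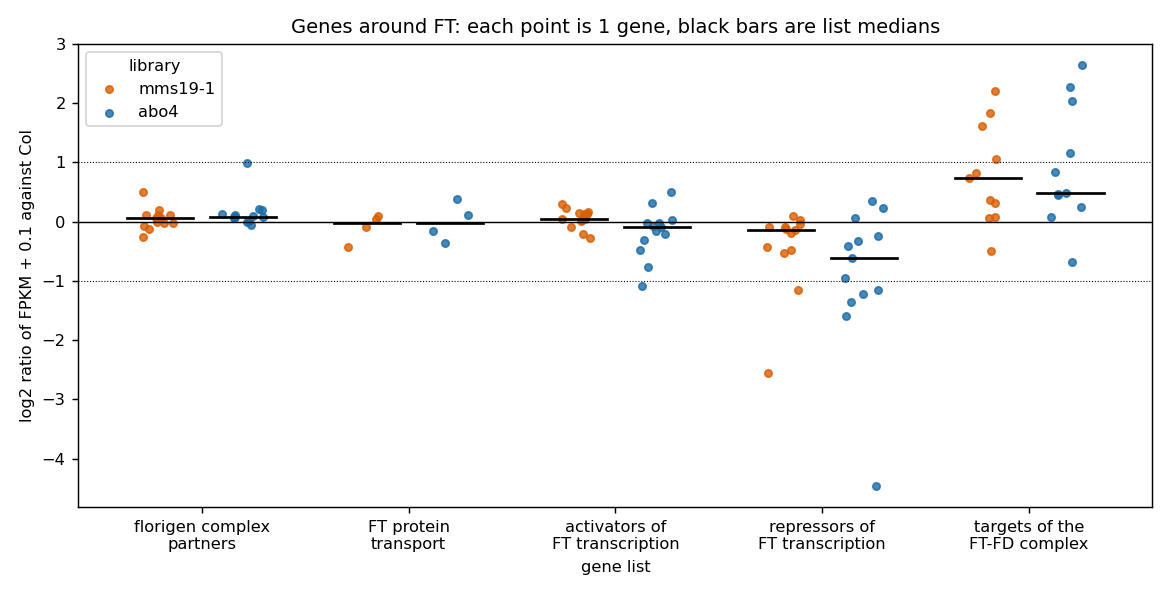
Log2 ratio of FPKM + 0.1 against Col (vertical axis) for the genes of 5 lists around *FT* (horizontal axis) in *mms19-1* and *abo4*. Points are single genes, black bars are list medians and dotted lines mark 2-fold. The medians of the repressors lie at -0.15 and -0.62 and those of the targets at 0.74 and 0.48, while the partner and transport genes lie near 0.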

How the data were processed

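Total RNA of 14-day-old seedlings was enriched for poly(A) RNA and sequenced on an Illumina HiSeq instrument. The authors aligned 45-bp reads to TAIR10 with TopHat2 2.0.12, computed FPKM per gene with Cufflinks 2.0.1 and Cuffdiff, and deposited the FPKM values, without log transformation, in 1 table of 34133 entries. The placing of reads with several matches is not given in the sources used here. Where a locus had several entries, the one with the larger mean was kept.

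The members and gene lists were chosen with earlier results of these data known. The measure was the log2 ratio of FPKM + 0.1, with limits of 1 and -1. Named genes were the members, list genes past 2-fold in a mutant (or the largest difference of a list), and neighbours and closest patterns of *FT*, *TFL1* and *BFT*. Others were chosen after their values were seen (*FTIP1*, *CO*, *GI*, *NF-YB2*, *SOC1*, *SPL3*, *SPL5* and markers).

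Reads were estimated from FPKM and Cufflinks-type effective lengths (fragments of mean 200 nt, SD 80 nt, at least 49 nt), using for each gene the RefSeq TAIR10.1 transcript with the lowest accession number. The depth was the number that made most low values whole. Of the values between 0.5 and 6 reads at genes of 300 to 3000 nt with 1 transcript, 61.2 to 69.4% then lay within 0.05 of a whole number, so estimates are approximate. Depths relative to Col were 0.916 in *mms19-1* and 0.886 in *abo4*. Intervals are exact Poisson (levels) and exact binomial (ratios) at 95%. The gene models of TAIR10.1 can differ in length from those used by the authors, which moves read numbers but hardly the ratios between libraries. Coordinates and sequences are those of TAIR10.1. Python 3.11.15, numpy 2.4.6, pandas 2.3.3, scipy 1.17.1, Biopython 1.88 and matplotlib 3.10.9 were used, and the calculation was tested on simulated data.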

Additional observations from a re-analysis of the deposited data

Results flagged for a closer look

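*BFT* had log2 ratios of opposite sign against Col in the mutants. Its log2 ratio of FPKM + 0.1 against Col was 1.37 in *mms19-1* and -0.36 in *abo4*, with 1 library each. Directly between the mutants, the *abo4* level was 29.2% of that in *mms19-1* (20.9 to 40.2%, counting error only), which was not tested against replicates. The interval of the *abo4* level, at 52.8 to 112% of Col, holds the Col level.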

How the results depend on the processing

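No paired analysis was possible because each genotype has 1 library, and no library could be left out. With 1 FPKM added in place of 0.1, the log2 ratio of *FT* was 2.28 in *mms19-1* and 1.56 in *abo4*; the members past 2-fold became 2 higher in *mms19-1*, without *TFL1* (log2 ratio 0.92), 1 higher in *abo4* than in Col, and 0 higher and 1 lower in *abo4* than in *mms19-1*, again without *TFL1* (-0.78). Of the 54 list genes, 1 was then higher in *mms19-1*, 1 higher in *abo4*, and 0 higher and 2 lower in *abo4* than in *mms19-1*, beside 4, 4, 1 and 4 with 0.1 FPKM. With a 4-fold limit, *FT* was the 1 member higher in *mms19-1* and the 1 higher in *abo4*, with 0 members past the limit in either direction between the mutants. Of the list genes, 1 was then higher and 1 lower in *mms19-1*, 3 were higher and 1 lower in *abo4*, and 0 were past the limit between the mutants. Among loci with a mean of at least 1 FPKM, which leaves out *TSF*, 1 member was higher in *abo4* than in Col, beside 1.92% of these loci. In *abo4* against *mms19-1* 0 members were higher, beside 2.09%. Since fewer genes are left, the list genes counted as higher were 2 in *mms19-1*, beside 1.03%, and 1 in *abo4*, beside 1.92%. By estimated reads with nothing added and an exact interval, the counts were again 1 and 0 members, and 2 list genes were higher in *abo4* than in *mms19-1*, as with 0.01 FPKM added. Centring the ratios and summing entries changed none of these counts by more than 1.5 times. Apart from the limit on the mean, shares over all loci are not given under these settings, so the counts describe the named genes only. *FDP* passed 2-fold in *abo4* with 0.01 FPKM added, with centred ratios and by estimated reads. No direction of a member past 2-fold reversed under any of these settings. At low depth, *TSF* and the Col values of *AP1*, *CAL* and *LFY* rest on 6 reads or fewer.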
